A study of Mus musculus with 6 samples.

Results

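Transforming growth factor beta (TGF-beta) and bone morphogenetic protein (BMP) pathway genes were examined as a list of 54 ligands, receptors, SMAD and SMURF genes, extracellular antagonists, latent TGF-beta binding proteins and ID target genes. Each gene was read from 1 Affymetrix MOE430_2 probe set, chosen as the brightest on average of those annotated to that gene alone. This gave 53 members among 18193 genes measured, and Bmp3, a BMP family ligand, was not analysed here. The 6 arrays hold 3 samples of Ebf2-positive cells and 3 samples of Ebf2-negative cells. Both populations were isolated without culture or treatment from the marrow of adult wild-type C57BL/6 mice, and in both the sort left out cells carrying CD45, TER119 or CD31, surface markers of leukocytes, erythroid cells and endothelium. Ebf2 is a transcription factor of the early B-cell factor (EBF) family, and the single comparison of the design sets cells with it against cells without it inside that gate. The sources used here do not give the way Ebf2 was detected, the number of animals or whether replicates came from different animals. The p-values therefore describe the spread of these samples alone, and that spread may be technical.

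Ligands of this family are secreted as dimers and bind pairs of type II and type I serine/threonine kinase receptors. The type I receptor phosphorylates receptor SMADs, the TGF-beta and activin receptors acting mainly on SMAD2 and SMAD3 and the BMP receptors on SMAD1, SMAD5 and SMAD9, and these enter the nucleus with SMAD4. TGF-beta is stored in the matrix bound to latent TGF-beta binding proteins, BMPs and activins are held back by secreted antagonists, and in marrow and bone the pathway is known for its part in osteoblast formation, matrix production and the restraint of blood stem cells.

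Every role group held members that were brighter in Ebf2-positive than in Ebf2-negative cells on the scale the authors deposited. Gdf10, Tgfb2, Bmp2 and Ltbp4 led by difference and were higher with poly-A control centring too. A gene was called when its limma p, adjusted by Benjamini-Hochberg over all 18193 genes, was below 0.05, and values are log2 of the normalised array intensity. Of the 53 members, 31 (58.5%) were called higher and 1 (1.89%) was called lower, where 10.8% of all genes were called higher and 13.6% lower (24.4% in either direction). By role, the share called higher ran from 50% (SMADs and SMURFs, and ID targets) to 75% (latent binding proteins). The members were brighter than genes at large, with a median of mean log2 signal of 6.85, against 5.13 over all genes. The share called among all genes of like brightness was not worked out. The members' median log2 difference, Ebf2-positive minus Ebf2-negative, was 1.47, against 0.07 over all genes, and 21 of the 31 were higher by at least 4-fold. These directions are those of the authors' common scale, and they reversed for many members with each array centred on its poly-A control probe sets, which detect bacterial transcripts added as controls. Those controls read 12.16, 12.23 and 12.58 on Ebf2-positive arrays, against 10.31, 8.70 and 10.52 on Ebf2-negative arrays, and the sources used here do not give the amount added to each sample. Centring on them lowered every difference by 2.48 and left 5 members called higher (Gdf10, Tgfb2, Bmp2, Tgfb3 and Ltbp4) and 16 lower, beside 227 genes higher and 15596 lower in all. The members' median stayed 1.40 above that of all genes, since such a shift is common to every gene. The controls also differed between replicates, most of all for Ebf2-negative replicate 2, so centring changed the spread within groups too. A lost call can therefore stem from the shift, the spread or both. Tgfbr2, for example, still differed by 1.12 with this centring but was not called (limma adjusted p = 0.149). In bulk samples such as these, fewer cells of a type and less RNA per cell cannot be told apart.

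**Figure D1:**
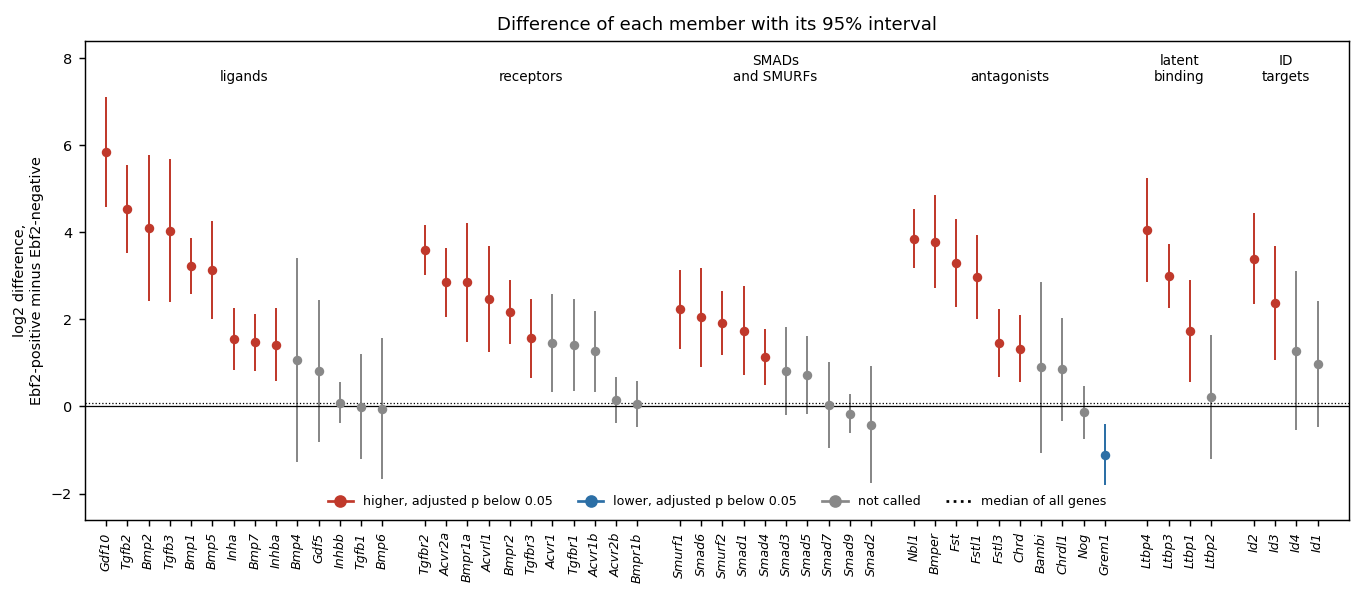
Log2 difference, Ebf2-positive minus Ebf2-negative, of each measured member with its 95% confidence interval (limma, n = 3 arrays each), by role. Of 53 members, 31 were called higher and 1 lower, and the dotted line marks the median of all genes, 0.07; with arrays centred on the poly-A controls every point would stand 2.48 lower, so that many would change sign.

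The sort gene and the markers of other cell types frame these values. Ebf2 itself read 8.13, 8.80 and 8.04 in Ebf2-positive cells, against 3.10, 4.02 and 3.84 in Ebf2-negative cells, log2 difference 4.67, SE 0.33, adjusted p = 0.000476. The groups stood well apart, in the direction of the labels. Ptprc, which encodes CD45, read 6.68, 6.76 and 3.59 in Ebf2-positive cells, against 8.78, 7.98 and 8.23 in Ebf2-negative cells, with an adjusted p of 0.0698, and Pecam1, which encodes CD31, differed by 0.56 with an adjusted p of 0.404. Marker lists were then summed on the linear intensity scale over each array. The 9 mesenchymal stromal markers summed to 51900 to 63500 in Ebf2-positive arrays, against 5030 to 12500 in Ebf2-negative arrays, and the 7 mural cell markers to 15000 to 17300, against 226 to 554. Erythroid markers (9 of 12 measured) ran the other way, at 295 to 823 against 11700 to 12600, as did leukocyte markers (8 of 8), at 519 to 922 against 1860 to 3130, megakaryocyte markers (6 of 7), at 177 to 233 against 634 to 1190, and proliferation genes (5 of 6), at 138 to 606 against 3940 to 4710. The 9 endothelial markers summed to 889 to 1800 in Ebf2-positive arrays, against 284 to 725, the 8 cartilage markers to 2790 to 11500, against 542 to 1250, and the osteoblast markers (4 of 7) to 357 to 584, against 444 to 1150. No marker is listed at 0, since normalised array values carry a background level. Called lower were 8 of 9 erythroid, 4 of 8 leukocyte, 4 of 6 megakaryocyte and 5 of 5 proliferation genes. Called higher were 7 of 9 mesenchymal, 7 of 7 mural, 2 of 9 endothelial (Tek and Esam) and 2 of 8 cartilage genes, and of 4 osteoblast genes 1 was higher and 1 lower. The 2 mesenchymal markers that were not called, Cxcl12 and Lepr, both markers of marrow reticular cells, are named after their values were seen. Cxcl12 read 11.92, 12.56 and 11.45 in Ebf2-positive cells, against 10.99, 12.48 and 11.13 in Ebf2-negative cells, and Lepr read 6.56, 8.51 and 7.64 in Ebf2-positive cells, against 8.12, 8.70 and 7.83 in Ebf2-negative cells, with adjusted p = 0.557 for Cxcl12 and 0.421 for Lepr. The groups overlapped for both. Every pathway difference below was measured between groups that also differed in these markers. The part of these markers' cell types in those differences was not tested.

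**Figure D2:**
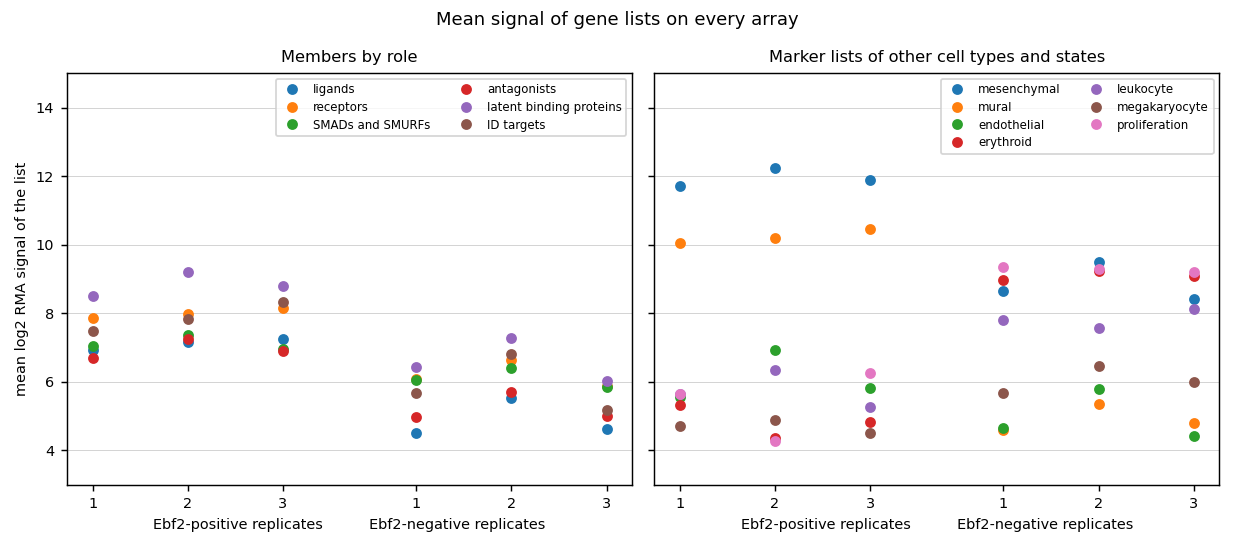
Mean log2 signal of each pathway role group (left) and of 7 marker lists (right) on each of the 6 arrays, with the Ebf2-positive arrays left of the Ebf2-negative arrays. Mesenchymal and mural lists are brighter and erythroid, leukocyte and proliferation lists dimmer on the 3 Ebf2-positive arrays. Ebf2-negative replicate 2 is the highest Ebf2-negative array for all 6 role groups. Centring on the poly-A controls would move each array by its own amount and lower every difference of group means, Ebf2-positive minus Ebf2-negative, by 2.48.

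The 250 bases before the annotated transcription start, on the coding strand, are shown for the called member with the largest difference among ligands (Gdf10), receptors (Tgfbr2), antagonists (Nbl1) and ID targets (Id2). Sequences are RefSeq's for GRCm38.p6, at chr14:33923337-33923586 (plus strand), chr9:116175364-116175613 (minus), chr4:139092971-139093220 (minus) and chr12:25096093-25096342 (minus). Capitals mark CCCNNGGG, the core letters of the EBF family motif, and GGCGCC, the GC-rich element bound by BMP-activated SMADs; both motifs read the same on either strand.
Gdf10: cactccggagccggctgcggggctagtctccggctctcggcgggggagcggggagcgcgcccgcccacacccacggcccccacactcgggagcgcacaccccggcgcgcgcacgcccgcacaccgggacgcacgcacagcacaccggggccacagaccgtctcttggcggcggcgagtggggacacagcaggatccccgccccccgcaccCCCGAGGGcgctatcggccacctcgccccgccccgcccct
Tgfbr2: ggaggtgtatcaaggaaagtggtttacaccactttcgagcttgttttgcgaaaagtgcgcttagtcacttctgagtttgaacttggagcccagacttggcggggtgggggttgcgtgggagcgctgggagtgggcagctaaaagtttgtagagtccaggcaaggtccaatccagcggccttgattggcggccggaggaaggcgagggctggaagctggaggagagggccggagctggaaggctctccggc
Nbl1: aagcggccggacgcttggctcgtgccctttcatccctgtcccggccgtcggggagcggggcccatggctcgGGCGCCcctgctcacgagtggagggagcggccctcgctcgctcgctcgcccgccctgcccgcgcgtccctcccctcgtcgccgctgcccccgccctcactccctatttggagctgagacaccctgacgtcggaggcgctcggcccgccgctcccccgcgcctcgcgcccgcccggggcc
Id2: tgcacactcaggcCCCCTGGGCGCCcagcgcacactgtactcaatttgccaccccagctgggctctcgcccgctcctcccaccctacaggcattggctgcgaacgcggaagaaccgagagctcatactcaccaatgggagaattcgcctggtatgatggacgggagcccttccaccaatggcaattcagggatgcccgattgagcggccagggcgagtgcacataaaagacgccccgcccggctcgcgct
The EBF core lies 40 bases before the start in Gdf10. The GC-rich element lies 179 bases before the start in Nbl1, and in Id2 the motifs overlap, with first bases 237 and 231 before the start, while neither set of letters is in the Tgfbr2 window. The same rule gave Smurf1 for SMADs and SMURFs and Ltbp4 for latent binding proteins, whose windows are not printed. Neither set of letters is in the Smurf1 window or in the first of 3 Ltbp4 windows. Both sets occur among the other Ltbp4 windows. Promoter windows matched 38 members with 46 windows in all. CCCNNGGG stood in 30.4% of the members' windows (14 of 46), in 19.2% of the windows of members called higher (5 of 26) and in 11.8% of all 32851 windows. GGCGCC stood in 28.3% (13 of 46), 30.8% (8 of 26) and 9.59% of the same windows. Median GC content was 68% in the members' windows, 65.6% in those of members called higher and 52.4% in all windows, and both motifs are rich in G and C. The palindromic SMAD element GTCTAGAC stood in 0 of the 46 member windows and in 0.167% of all windows.

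Ligands were called higher in 9 of 14 measured cases and lower in 0, with a median difference of 1.51; with poly-A centring 4 stayed higher and 4 were called lower. Gdf10, a BMP3-related ligand, had the largest difference of any member. It read 10.79, 10.67 and 10.84 in Ebf2-positive cells, against 3.84, 5.99 and 4.93 in Ebf2-negative cells, log2 difference 5.85, SE 0.52, adjusted p = 0.000859, which is 57.6-fold. The groups stood far apart although the Ebf2-negative arrays spread over more than 2 log2 units. Tgfb2, one of the TGF-beta isoforms, read 8.02, 8.78 and 8.33 in Ebf2-positive cells, against 3.01, 4.15 and 4.36 in Ebf2-negative cells (log2 difference 4.54, SE 0.41, adjusted p = 0.000906). Tgfb3, a further isoform, read 7.24, 8.45 and 8.94 in Ebf2-positive cells, against 3.95, 5.42 and 3.15 in Ebf2-negative cells (log2 difference 4.03, SE 0.68, adjusted p = 0.00718). Neither isoform overlapped between the groups, and each of the 4 Tgfb2 probe sets passed in that direction. Tgfb1, the isoform abundant in platelets and bone matrix, was not called and read 4.41, 4.11 and 4.27 in Ebf2-positive cells, against 3.10, 4.95 and 4.74 in Ebf2-negative cells. Its Ebf2-negative arrays lay on both sides of the Ebf2-positive ones, and its difference was -0.0046 (95% confidence interval -1.19 to 1.18; adjusted p = 0.996).

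Among the BMPs, Bmp2, an inducer of bone formation, read 7.25, 6.36 and 8.13 in Ebf2-positive cells, against 2.997, 4.38 and 2.06 in Ebf2-negative cells (log2 difference 4.10, SE 0.68, adjusted p = 0.00713). Bmp5 read 10.43, 10.46 and 10.88 in Ebf2-positive cells, against 7.69, 8.23 and 6.46 in Ebf2-negative cells (log2 difference 3.13, SE 0.46, adjusted p = 0.00457). Bmp1, which despite its name is a secreted metalloprotease that trims procollagens and cleaves chordin, read 9.73, 9.75 and 9.95 in Ebf2-positive cells, against 6.41, 7.06 and 6.26 in Ebf2-negative cells (log2 difference 3.24, SE 0.26, adjusted p = 0.000638). All 3 genes were higher on every Ebf2-positive array than on any Ebf2-negative array. Bmp7 was also called, with a difference of 1.47 (adjusted p = 0.0088), as were the inhibin and activin subunit genes Inha, by 1.55 (adjusted p = 0.0102), and Inhba, by 1.42 (adjusted p = 0.0247). Inhba lost its call without Ebf2-positive replicate 1 or 3 or without any 1 Ebf2-negative array, at adjusted p = 0.0604 to 0.093, and kept it without Ebf2-positive replicate 2; the other 8 kept theirs in all 6 such fits. Bmp4 read 8.66, 9.91 and 7.03 in Ebf2-positive cells, against 6.08, 9.10 and 7.22 in Ebf2-negative cells (difference 1.07, 95% confidence interval -1.26 to 3.39; adjusted p = 0.48). Bmp6, known for its control of iron balance through hepcidin, read 6.49, 7.98 and 6.24 in Ebf2-positive cells, against 6.05, 8.11 and 6.69 in Ebf2-negative cells (difference -0.05, 95% confidence interval -1.64 to 1.54; adjusted p = 0.968). For both, Ebf2-negative replicate 2 stood well above the other Ebf2-negative arrays, inside the Ebf2-positive range for Bmp4 and above it for Bmp6. Inhbb and Gdf5, a ligand of joint and cartilage development, differed by 0.09 and 0.81, with adjusted p = 0.76 and 0.438.

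Of the 4 latent TGF-beta binding proteins, 3 were called higher and 0 lower, with a median difference of 2.37; with poly-A centring 1 stayed higher and 1 was called lower. Ltbp4, an elastic-fibre protein of this family, read 8.50, 9.53 and 9.46 in Ebf2-positive cells, against 4.28, 5.94 and 5.08 in Ebf2-negative cells (log2 difference 4.06, SE 0.49, adjusted p = 0.00239). Ltbp3, a binding protein with a known part in skeletal growth, read 11.11, 11.23 and 10.84 in Ebf2-positive cells, against 8.14, 8.51 and 7.52 in Ebf2-negative cells (log2 difference 3.004, SE 0.29, adjusted p = 0.0012). Both separated the groups on every array. Ltbp1 read 7.12, 7.38 and 7.12 in Ebf2-positive cells, against 6.20, 5.84 and 4.37 in Ebf2-negative cells (log2 difference 1.73, SE 0.48, adjusted p = 0.0417), and lost its call without any 1 Ebf2-positive array or without Ebf2-negative replicate 2, at adjusted p = 0.0729 to 0.0953. With its probe sets averaged Ltbp1 differed by 0.71 (adjusted p = 0.136), and with array weights its adjusted p was 0.063. Ltbp2, which does not bind latent TGF-beta itself, read 7.26, 8.65 and 7.81 in Ebf2-positive cells, against 7.14, 8.86 and 7.06 in Ebf2-negative cells, and the groups overlapped (difference 0.22, 95% confidence interval -1.19 to 1.62, adjusted p = 0.818).

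Extracellular antagonists were called higher in 6 of 10 cases and lower in 1, with a median difference of 1.39; with poly-A centring 0 were called higher and 4 lower. Nbl1, a BMP antagonist of the DAN family, read 8.72, 8.50 and 9.33 in Ebf2-positive cells, against 4.82, 4.92 and 5.24 in Ebf2-negative cells (log2 difference 3.85, SE 0.27, adjusted p = 0.000476). Bmper, a secreted BMP-binding protein related to fly crossveinless, read 7.59, 8.67 and 7.91 in Ebf2-positive cells, against 3.89, 5.07 and 3.87 in Ebf2-negative cells (log2 difference 3.78, SE 0.43, adjusted p = 0.00202). Neither overlapped between the groups. Chrd, the BMP antagonist chordin, read 6.04, 6.19 and 5.15 in Ebf2-positive cells, against 4.37, 4.63 and 4.40 in Ebf2-negative cells (log2 difference 1.33, SE 0.31, adjusted p = 0.0239). All 3 measured genes of the follistatin family were called. Fst, which binds activins, read 10.03, 9.78 and 10.37 in Ebf2-positive cells, against 6.27, 7.67 and 6.38 in Ebf2-negative cells (log2 difference 3.29, SE 0.41, adjusted p = 0.00277), and Fstl1, a related secreted glycoprotein, read 11.90, 12.27 and 12.05 in Ebf2-positive cells, against 8.82, 9.96 and 8.52 in Ebf2-negative cells (log2 difference 2.97, SE 0.39, adjusted p = 0.00326). Every probe set of Fst and of Fstl1 was called higher. Fstl3, also an activin antagonist, read 5.42, 5.97 and 4.79 in Ebf2-positive cells, against 3.84, 3.93 and 4.04 in Ebf2-negative cells (log2 difference 1.46, SE 0.32, adjusted p = 0.0189).

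Grem1, a BMP antagonist of the same family as Nbl1, was the 1 member called lower. It read 3.08, 3.26 and 3.07 in Ebf2-positive cells, against 3.73, 4.72 and 4.28 in Ebf2-negative cells, log2 difference -1.11, SE 0.28, adjusted p = 0.0327, so that the Ebf2-positive arrays lay at the low end of the intensity scale. The call was lost in 5 of the 6 fits without 1 array, all but the fit without Ebf2-negative replicate 1, at adjusted p = 0.0557 to 0.109, and with 75th-percentile centring (adjusted p = 0.0536). Chrd lost its call in all such fits but the one without Ebf2-positive replicate 3 (adjusted p = 0.0545 to 0.0873), and Fstl3 lost its call without any 1 Ebf2-negative array (adjusted p = 0.0603 to 0.0685). Chrdl1, a chordin-like BMP antagonist, read 7.98, 8.97 and 8.26 in Ebf2-positive cells, against 7.19, 8.53 and 6.92 in Ebf2-negative cells (0.86; 95% confidence interval -0.30 to 2.02; adjusted p = 0.26). The 4 Chrdl1 probe sets disagreed in direction, though none was called. The next brightest differed by -0.36 (adjusted p = 0.599 over all probe sets). Bambi, a pseudoreceptor that blocks signalling, read 3.20, 6.55 and 5.38 in Ebf2-positive cells, against 3.97, 4.56 and 3.88 in Ebf2-negative cells. Its Ebf2-positive arrays spread over more than 3 log2 units and overlapped the others (difference 0.91, 95% confidence interval -1.03 to 2.85, adjusted p = 0.472), and leaving out Ebf2-positive replicate 1 gave 1.83 (adjusted p = 0.0353). Nog, the BMP antagonist noggin, read 3.001, 2.42 and 2.67 in Ebf2-positive cells, against 2.77, 3.13 and 2.60 in Ebf2-negative cells, and the groups overlapped (-0.13; 95% confidence interval -0.72 to 0.45; adjusted p = 0.733).

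**Figure D3:**
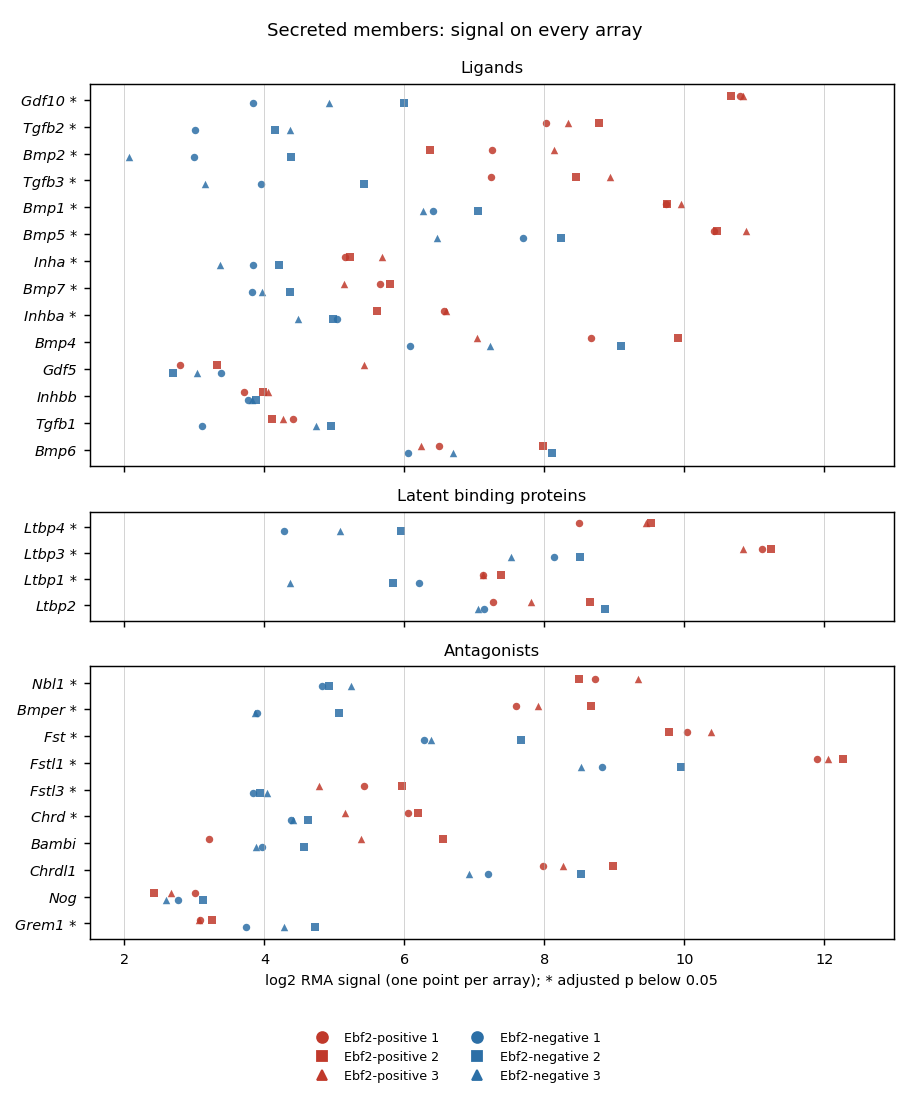
Log2 signal of each ligand, latent binding protein and antagonist on each array, with Ebf2-positive arrays in red and Ebf2-negative arrays in blue; the symbol gives the replicate. Gdf10, Tgfb2, Ltbp4 and Nbl1 show wide gaps between groups, while Tgfb1, Bmp6 and Ltbp2 overlap. Poly-A centring would move each array by its own amount. It would lower every difference of group means by 2.48 and turn the smaller positive ones below 0.

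Receptors were called higher in 6 of 11 cases and lower in 0, with a median difference of 1.57; with poly-A centring 0 were called higher and 2 lower. Those 2, Bmpr1b and Acvr2b, were dim in both groups on the authors' scale. Their means were 3.06 and 4.34 in Ebf2-positive cells, against 2.99 and 4.19 in Ebf2-negative cells. Tgfbr2, the type II receptor of TGF-beta, read 11.59, 11.59 and 12.02 in Ebf2-positive cells, against 8.01, 8.43 and 7.97 in Ebf2-negative cells (log2 difference 3.60, SE 0.23, adjusted p = 0.000384), which is 12.1-fold and the clearest separation relative to spread among the receptors. Its other 2 probe sets, which were dim, differed by 0.30 and 0.65 and were not called. Type II receptors were called in 3 of 4 cases: Acvr2a, an activin receptor, read 9.12, 8.15 and 8.94 in Ebf2-positive cells, against 5.73, 6.25 and 5.66 in Ebf2-negative cells (log2 difference 2.85, SE 0.32, adjusted p = 0.00191), and Bmpr2, the BMP type II receptor, read 9.97, 10.53 and 10.02 in Ebf2-positive cells, against 8.18, 8.33 and 7.49 in Ebf2-negative cells (log2 difference 2.17, SE 0.30, adjusted p = 0.00369). No array of either group crossed into the other. With its probe sets averaged Bmpr2 differed by 0.90 (adjusted p = 0.0835). Acvr2b differed by 0.15 (95% confidence interval -0.35 to 0.65; adjusted p = 0.654).

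Type I receptors were called in 2 of 6 cases. Bmpr1a, a BMP receptor, read 7.93, 9.31 and 9.64 in Ebf2-positive cells, against 5.62, 6.99 and 5.72 in Ebf2-negative cells (log2 difference 2.85, SE 0.56, adjusted p = 0.0131). The call for Bmpr1a was lost without Ebf2-negative replicate 1 or 3 (adjusted p = 0.053 and 0.0559), and 3 of its 6 probe sets were called higher. Acvrl1, a type I receptor best known from endothelium, read 7.41, 6.93 and 6.66 in Ebf2-positive cells, against 4.35, 5.56 and 3.68 in Ebf2-negative cells (log2 difference 2.47, SE 0.49, adjusted p = 0.0137). Acvrl1 was not called when Ebf2-negative replicate 1 was left out (adjusted p = 0.0547), and with probe sets ending in _s_at, _x_at and _a_at left out it differed by 1.32 (adjusted p = 0.0503). Of the 9 endothelial markers 2 were called higher, the list's mean log2 signal was 5.54 to 6.91 on Ebf2-positive arrays, against 4.43 to 5.78 on Ebf2-negative arrays, and their part in this result was not tested. Neither Bmpr1a nor Acvrl1 overlapped between the groups. Tgfbr1, the type I receptor of TGF-beta, read 7.67, 7.64 and 7.37 in Ebf2-positive cells, against 7.04, 6.07 and 5.33 in Ebf2-negative cells (1.41; 95% confidence interval 0.38 to 2.45; adjusted p = 0.0585). Acvr1, a type I receptor for BMPs, read 6.78, 6.90 and 7.67 in Ebf2-positive cells, against 5.37, 6.57 and 5.04 in Ebf2-negative cells (1.45; 0.35 to 2.55; adjusted p = 0.0647). Acvr1b, an activin receptor, read 7.63, 8.37 and 8.36 in Ebf2-positive cells, against 6.13, 7.18 and 7.23 in Ebf2-negative cells (1.27; 0.36 to 2.18; adjusted p = 0.055). These 3 receptors separated the groups on every array but missed the threshold, and each passed it in 1 of the 6 fits without 1 array: Tgfbr1 without Ebf2-negative replicate 1 (1.86, adjusted p = 0.0175), Acvr1 without Ebf2-negative replicate 2 (1.91, adjusted p = 0.0198) and Acvr1b without Ebf2-positive replicate 1 (1.51, adjusted p = 0.0473). All 3 also passed with a further quantile normalization, with 75th-percentile centring and with either filter on dim probe sets (adjusted p = 0.0285 to 0.0424). Bmpr1b differed by 0.06 (adjusted p = 0.855). Tgfbr3, the coreceptor betaglycan, read 10.97, 11.18 and 11.41 in Ebf2-positive cells, against 9.58, 10.32 and 8.95 in Ebf2-negative cells (log2 difference 1.57, SE 0.37, adjusted p = 0.024). Its call was lost without Ebf2-positive replicate 2 or 3 or Ebf2-negative replicate 1 or 3 (adjusted p = 0.0534 to 0.0795), and with array weights (adjusted p = 0.0504).

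SMAD and SMURF genes, the intracellular part, were called higher in 5 of 10 cases and lower in 0, with a median difference of 0.98; with poly-A centring 0 were called higher and 5 lower. Both SMURF genes, which encode ubiquitin ligases that mark SMADs and receptors for breakdown, were called, and neither overlapped between the groups. Smurf1 read 6.83, 7.53 and 6.38 in Ebf2-positive cells, against 5.02, 4.84 and 4.18 in Ebf2-negative cells (log2 difference 2.23, SE 0.37, adjusted p = 0.00697), and Smurf2 read 9.16, 9.33 and 9.51 in Ebf2-positive cells, against 6.84, 7.84 and 7.57 in Ebf2-negative cells (log2 difference 1.91, SE 0.30, adjusted p = 0.0056). Smad6, an inhibitory SMAD acting mainly on BMP signals, read 6.11, 6.31 and 6.79 in Ebf2-positive cells, against 4.08, 5.35 and 3.63 in Ebf2-negative cells (log2 difference 2.05, SE 0.47, adjusted p = 0.0218). Smad1, a BMP receptor SMAD, read 8.395, 8.78 and 7.74 in Ebf2-positive cells, against 6.92, 6.97 and 5.80 in Ebf2-negative cells (log2 difference 1.74, SE 0.42, adjusted p = 0.0257). The common partner Smad4 read 9.38, 9.10 and 8.81 in Ebf2-positive cells, against 8.21, 8.05 and 7.58 in Ebf2-negative cells (log2 difference 1.15, SE 0.26, adjusted p = 0.0209). All 5 kept the groups apart, yet 3 of them depended on single arrays: Smad1 lost its call without Ebf2-positive replicate 1 or 2 or Ebf2-negative replicate 1 or 3 (adjusted p = 0.0535 to 0.069), Smad4 without Ebf2-positive replicate 1 or Ebf2-negative replicate 2 or 3 (0.0517 to 0.0754), and Smad6 without Ebf2-positive replicate 3 or Ebf2-negative replicate 1 or 3 (0.0591 to 0.0805). With its probe sets averaged Smad4 differed by 1.03 (adjusted p = 0.11).

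The TGF-beta receptor SMADs were called in 0 of 2 cases. Smad2 read 6.83, 7.51 and 5.39 in Ebf2-positive cells, against 7.13, 7.28 and 6.57 in Ebf2-negative cells (-0.41; 95% confidence interval -1.73 to 0.90; adjusted p = 0.633). Smad3 read 8.18, 8.45 and 6.93 in Ebf2-positive cells, against 6.87, 7.05 and 7.21 in Ebf2-negative cells (0.81; -0.18 to 1.80; adjusted p = 0.213). The groups overlapped for both. Smad3 passed the threshold without Ebf2-positive replicate 3 (1.27, adjusted p = 0.0146). Its further probe sets differed by 0.58 and, for the dimmest, by -0.29, and neither was called. Smad5, a BMP receptor SMAD like Smad1, read 6.87, 7.77 and 8.23 in Ebf2-positive cells, against 6.91, 7.09 and 6.70 in Ebf2-negative cells (0.73, adjusted p = 0.211). It differed by 1.1 without Ebf2-positive replicate 1 (adjusted p = 0.0305). The 3 Smad5 probe sets disagreed in direction, though none was called. A further set differed by 0.89 (adjusted p = 0.203 over all probe sets). The last read 2.93, 3.97 and 3.10 in Ebf2-positive cells, against 5.98, 4.52 and 4.43 in Ebf2-negative cells (-1.65, adjusted p = 0.0814). Smad7, an inhibitory SMAD acting on both branches, differed by 0.03 (-0.94 to 0.999; adjusted p = 0.968), and Smad9 by -0.16 (adjusted p = 0.554).

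ID genes encode inhibitors of DNA binding that are direct BMP targets, and 2 of 4 were called higher and 0 lower, with a median difference of 1.82; with poly-A centring 0 were called in either direction. Id2 read 8.83, 8.002 and 8.82 in Ebf2-positive cells, against 5.34, 5.77 and 4.35 in Ebf2-negative cells (log2 difference 3.397, SE 0.43, adjusted p = 0.00281), with every Ebf2-positive array above every Ebf2-negative one. The other 2 Id2 probe sets were dim and were not called, so with probe sets ending in _s_at, _x_at and _a_at left out Id2 differed by 0.04 (adjusted p = 0.903). Id3 read 8.79, 9.83 and 9.32 in Ebf2-positive cells, against 6.14, 8.05 and 6.64 in Ebf2-negative cells (log2 difference 2.37, SE 0.53, adjusted p = 0.0209) and lost its call without Ebf2-positive replicate 2 or 3 or Ebf2-negative replicate 1 or 3 (adjusted p = 0.0506 to 0.0802). Id4 read 8.04, 7.404 and 9.44 in Ebf2-positive cells, against 7.32, 8.07 and 5.66 in Ebf2-negative cells (1.28; 95% confidence interval -0.53 to 3.08; adjusted p = 0.279). With its probe sets averaged Id4 differed by 1.54 (adjusted p = 0.0464). Id1 read 4.31, 6.09 and 5.73 in Ebf2-positive cells, against 3.85, 5.36 and 3.99 in Ebf2-negative cells (0.98; -0.45 to 2.41; adjusted p = 0.296). In both of these genes Ebf2-negative replicate 2 was the highest of its group and reached the Ebf2-positive range.

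**Figure D4:**
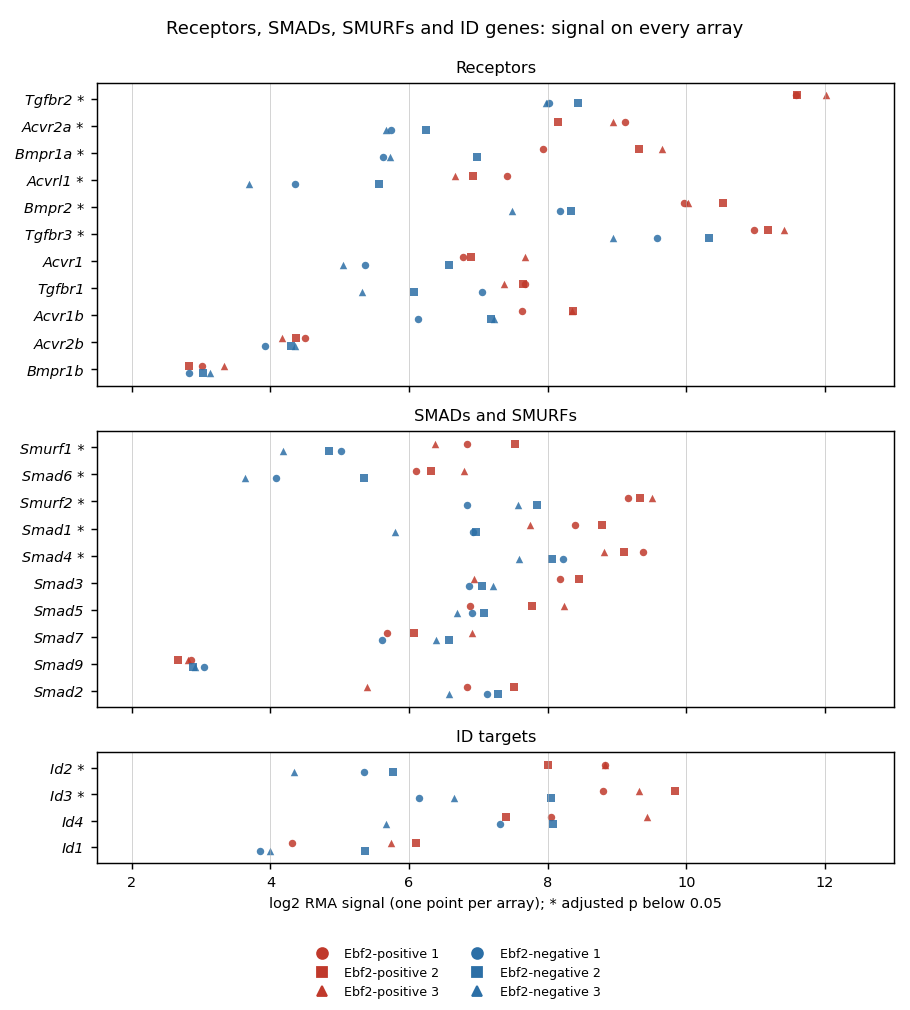
Log2 signal of each receptor, SMAD, SMURF and ID gene on each array, with Ebf2-positive arrays in red and Ebf2-negative arrays in blue; the symbol gives the replicate. Tgfbr2 separates the groups most clearly among the receptors, while Smad2, Smad7 and Bmpr1b overlap. Poly-A centring would move each array by its own amount. It would lower every difference of group means by 2.48 and reverse most of them.

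Over the members, groups did not overlap for 36 of 53 (67.9%), 34 of them higher and 2 lower, where the groups of 43.0% of all genes did not overlap (21.8% higher and 21.2% lower). Of the 32 called members, 20 kept their call in each of the 6 fits without 1 array, all of them higher, and the number kept was smallest, 22, without Ebf2-negative replicate 3. The median SD of the members over replicates was 0.431 in Ebf2-positive and 0.622 in Ebf2-negative arrays, against 0.376 and 0.243 over all genes. Ebf2-negative replicate 2 was the highest array of its group for 39 of 53 members (73.6%), for 8 of 9 mesenchymal markers (88.9%) and for 35.0% of all genes. Its median excess over the mean of the other Ebf2-negative arrays was 0.636 for members, 1.065 for mesenchymal markers and 0.027 for all genes. Without that array the members' median difference was 1.88, and 27 were called higher. Among the Ebf2-positive arrays, replicate 2 stood apart for the cartilage markers, whose mean log2 signal was 5.58 there and up to 9.23 elsewhere in the group, but 45 of the 53 members lay within 1 of the mean of the other Ebf2-positive arrays. The 33 members with several probe sets gave no case of calls in both directions. In all, 44 of 113 member probe sets were called higher (38.9%) and 1 lower, where 6.39% of all 45037 probe sets were called higher.

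A wider list of 79 further genes of the pathway, 69 of them measured, showed where the rest of it stood: 28 were called higher, 3 lower and 38 were not called, with a median difference of 0.37. That was 40.6% higher and 4.35% lower, where 10.8% of all genes were called higher and 13.6% lower, with a median of 0.07. With poly-A centring 4 of the wider list were called higher and 39 lower, beside 227 higher and 15596 lower of all 18193 genes. Extracellular modulators were called higher in 9 of 18 measured cases, target genes in 8 of 11, intracellular regulators in 7 of 16 with 1 lower, receptors and coreceptors in 2 of 6, genes of latent TGF-beta activation in 2 of 6 with 1 lower, and further ligands in 0 of 12 with 1 lower. Tmeff2, a membrane protein with follistatin-like domains, read 9.70, 9.38 and 8.38 in Ebf2-positive cells, against 2.71, 3.11 and 2.71 in Ebf2-negative cells (log2 difference 6.31, SE 0.37, adjusted p = 0.000334). Dcn, the proteoglycan decorin that binds TGF-beta, read 13.69, 13.79 and 13.78 in Ebf2-positive cells, against 7.78, 9.24 and 7.96 in Ebf2-negative cells (log2 difference 5.43, SE 0.40, adjusted p = 0.000515). The same Dcn values also stand among the 9 mesenchymal markers above. Tgfbi, a matrix protein named for its induction by TGF-beta, read 11.47, 11.06 and 11.65 in Ebf2-positive cells, against 5.73, 6.85 and 4.90 in Ebf2-negative cells (log2 difference 5.57, SE 0.49, adjusted p = 0.000854). For these 3 genes and for Htra3, a secreted serine protease (5.38), the difference exceeded 5 log2 units.

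Further called genes were Htra1, a related protease (3.69), Crim1, a membrane-bound BMP-binding protein (3.39), Rgmb, a BMP coreceptor (3.32), Zfyve9, which anchors SMADs at the endosome (3.03), Pmepa1, a TGF-beta-induced inhibitor of the pathway (3.02), and Bhlhe40, a transcriptional repressor (2.90). With poly-A centring none of these 6 was called, though each difference stayed above 0. The 3 genes called lower were Nrros, which holds latent TGF-beta on myeloid cells and microglia (-2.54, adjusted p = 0.00911), the ligand Gdf3 (-2.27, adjusted p = 0.00481) and Tgif2, a SMAD corepressor (-1.84, adjusted p = 0.012); they are named after their values were seen. Nrros was called lower beside 4 of the 8 leukocyte markers, whose part in it was not tested, and Tgif2 was not called when Ebf2-negative replicate 3 was left out (adjusted p = 0.0531). The brightest genes that were not called were Tab2 (-0.42), an adaptor of the kinase TAK1, the SMAD phosphatase Ppm1a (0.09), the ubiquitin ligase Trim33 (-1.14) and Eng, the endothelial coreceptor endoglin (0.58). Trim33 passed the threshold without Ebf2-positive replicate 3 (difference -1.75, adjusted p = 0.00522).

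**Figure D5:**
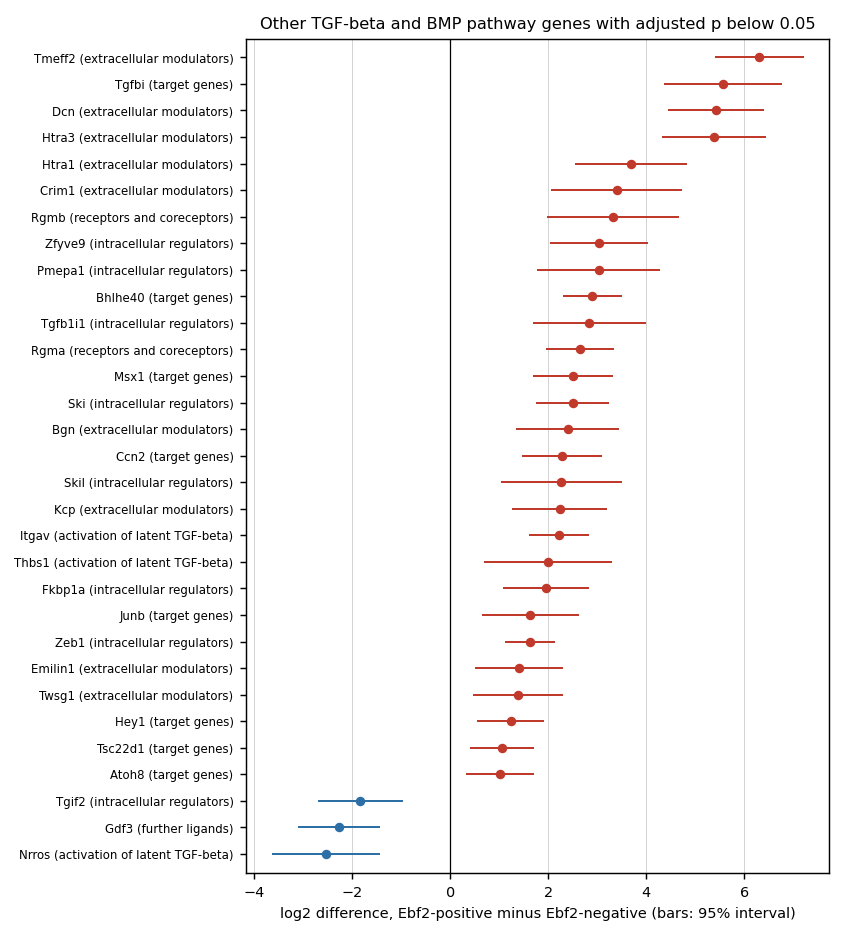
Log2 difference, Ebf2-positive minus Ebf2-negative, of the 28 further pathway genes called higher and the 3 called lower, of 69 measured. Genes are sorted by difference and labelled by role, each with its 95% confidence interval (limma, n = 3 arrays each). Extracellular modulators and target genes hold the largest differences. The 38 genes that were not called, 11 of the 12 further ligands among them, are not drawn. Centring on the poly-A controls would lower every value by 2.48 and change the sign of many.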

How the data were processed

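Each sample gave 1 intensity per probe set and array, made by the authors with RMA, per the submitters' processing notes; RMA corrects background, equalises the arrays' distributions (quantile normalization) and summarises each set's probes, and the sources used here give no software version. Per the labels' protocols and the series design text, RNA of 1000 or 2000 cells was amplified in a dual round. From their range, the intensities deposited by the authors are linear and not log2 values, so log2 was taken first. Quantile normalization hides differences in total RNA per cell, and amplification of little RNA adds spread to dim genes.

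The platform annotation held by GEO supplied gene names: 34945 probe sets name exactly 1 gene, 932 several and 9160 none, and 64 control probe sets were left out. Entrez identifiers were updated through a RefSeq table of GRCm38.p6, which changed 0 symbols. Groups came from the sample titles and were set against each other, 3 arrays each, by two-sided moderated statistics from limma 3.58.1 (R 4.3.3) over all 18193 genes; p-values were adjusted by Benjamini-Hochberg and called below 0.05, and the procedure was tested on simulated data. In the simulation, 1 of 80 genes with a true log2 difference of 1 was called, 27 of 60 with 2 and 54 of 60 with 4. It also gave 7 false calls, and far fewer genes were changed in it than were called here. The number of arrays limits the precision. No pair of arrays was identical, and array values correlated at 0.919 to 0.924 within the Ebf2-positive group, 0.968 to 0.977 within the Ebf2-negative group and 0.825 to 0.873 between them.

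The members, the wider pathway list and the marker lists were chosen with earlier results of these data known. Named with values on every array, per role group, were up to 6 called members with the largest absolute difference and up to 3 uncalled members with the highest mean; of the wider list, up to 10 called and up to 4 uncalled genes were named, the 3 with the largest difference with values on every array. Remaining members are given by their differences. Promoter windows were searched on both strands in Python 3.11.15, and figures were drawn with matplotlib 3.10.9. Alternatives were other scalings, filters on dim probe sets, other probe set choices, variance models, array weights, a minimum difference (treat), a replicate block and fits without single arrays.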

Additional observations from a re-analysis of the deposited data

How the results depend on the processing

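With 3 arrays per group and signals near background, differences of dim genes such as Grem1 are limited by signal over background. A further quantile normalization, median centring, an intensity trend, robust estimation, array weights and averaging over probe sets moved none of the counts or medians over all genes, members or wider list by more than 1.5 times or by more than the replicate spread. Poly-A centring did: it gave 227 genes higher and 15596 lower, 5 members higher and 16 lower with a median of -1.01, and 4 wider-list genes higher and 39 lower with a median of -2.11. By construction it lowers every difference by 2.48, which turned the difference of 31 members and 2 named wider-list genes below 0: Bmp4 (-1.41), Tgfbr1 (-1.07), Acvr1 (-1.03), Acvr1b (-1.21), Id1 (-1.5), Id4 (-1.2), Bmp7 (-1.01), Inha (-0.93), Inhba (-1.06), Inhbb (-2.39), Gdf5 (-1.67), Tgfbr3 (-0.91), Bmpr1b (-2.42), Bmpr2 (-0.31), Acvr2b (-2.33), Acvrl1 (-0.01), Smad1 (-0.74), Smad3 (-1.67), Smad4 (-1.33), Smad5 (-1.75), Smad6 (-0.43), Smad7 (-2.45), Smurf1 (-0.25), Smurf2 (-0.57), Chrd (-1.15), Chrdl1 (-1.62), Fstl3 (-1.02), Bambi (-1.57), Ltbp1 (-0.75), Ltbp2 (-2.26), Id3 (-0.11), Ppm1a (-2.39) and Eng (-1.9). Tgfb1, at about 0 otherwise, was at -2.48. The single lower call, Grem1, was lost (0 members lower) with 75th-percentile centring, with a minimum difference of 1 and without both arrays numbered 2. Grem1 was not tested with either filter on dim probe sets or without probe sets ending in _s_at, _x_at or _a_at, as its only probe set was left out. The 0 members lower in those settings therefore say nothing about its call. The filters raised the members' median to 2.11 (mean above 5) and 2.17 (brighter group above 6), since they test fewer, brighter genes. A minimum difference of 1 left 775 genes higher and 658 lower, 16 members higher and 0 lower, and 16 wider-list genes higher and 0 lower. Without both arrays numbered 2, 1642 genes were lower the members' median was 1.83, and Smad1, Smad4, Grem1, Chrd, Fstl3, Ltbp1 and Tgif2 were not called (adjusted p = 0.0814 to 0.139); the cause was not tested.

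Without single arrays, genes called higher numbered 1294 to 1877 and lower 1396 to 2471, with 1294 and 1396 without Ebf2-negative replicate 3 and 1586 lower without Ebf2-negative replicate 1. Members called higher numbered 22 to 29 and lower 0 to 1, with a median of 1.33 to 1.88 (1.88 without Ebf2-negative replicate 2), and wider-list genes called higher numbered 21 to 25 and lower 2 to 4. Replicate numbers are shared between groups. Deviations of same-numbered arrays correlated at 0.0582, 0.106 and 0.0287, and those of differently numbered arrays at -0.1 to 0.0421. Deviations from a mean of only 3 arrays per group cannot show whether same-numbered arrays belong together. With the replicate number as a block, 1884 genes were higher and 2335 lower, 33 members were higher and 1 lower, with Tgfbr1 and Acvr1b added, and 26 wider-list genes were higher and 3 lower.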
